A study of Mus musculus with 12 samples.

Results

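Ank1, Gypc and Slc4a1 encode proteins of the red cell membrane, and their chromatin was described here in mouse fetal liver and in proerythroblasts. The genes were chosen by position from earlier results on these same peak lists, in which wide H3K27ac regions and open sites had been seen, so the values below describe them and carry no test. The members are the peaks of all 11 peak lists that overlap a window of the mm9 build around each gene. The windows are chromosome 8 from 24075000 to 24272000 for Ank1 (197 kb), chromosome 18 from 32675000 to 32735000 for Gypc (60 kb) and chromosome 11 from 102200000 to 102240000 for Slc4a1 (40 kb). They held 146 peaks of the 353805 in all lists, of which 66 lay in the Ank1, 46 in the Gypc and 34 in the Slc4a1 window. The windows cut 6 of these peaks. At Slc4a1 they were the H3K27ac peak of replicate 1, which ran 83 bp past the edge, an H3K4me2 peak of replicate 2 (150 bp) and the H3K4me1 peak of replicate 1 (9524 bp). At Gypc they were an H3K4me1 peak at the right edge in each of replicates 1, 2 and 3 (720, 2720 and 2317 bp).

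Every sample came from C57BL/6 mice at embryonic day 14.5, with no genetic change or treatment named in the labels. Histone marks were profiled by ChIP-seq in whole fetal liver, with 3 libraries for H3K4me1 and 2 each for H3K4me2, H3K4me3 and H3K27ac. Open chromatin was profiled by ATAC-seq, in which a transposase cuts accessible DNA, in 2 libraries of proerythroblasts, the earliest red cell precursors that can be told apart by their form. An input DNA library entered no comparison. The labels do not say whether libraries of one mark came from separate embryos or pools, so their spread may be technical. Fetal liver holds hepatocytes and other blood cells beside red cell precursors, and in such a mixture a mark in fewer cells and a weaker mark in each cell cannot be told apart. For H3K4me2 the sample labels and the protocol name antibodies of different suppliers, and for H3K4me3 and H3K27ac they give different catalogue numbers of one supplier. Titles of the ChIP libraries carry a tag that the labels do not explain and that crosses the replicate numbers. The tag 3-18 is shared by H3K27ac replicate 1, H3K4me2 replicate 1 and H3K4me3 replicate 2, and 3-25 by H3K4me2 replicate 2 and H3K4me3 replicate 1.

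The red cell membrane is held to a spectrin network by protein bridges. Ankyrin-1, the product of Ank1, binds spectrin on one side and band 3 on the other. Band 3, the product of Slc4a1, is the chloride and bicarbonate exchanger of the red cell and the membrane anchor of ankyrin. Glycophorin C, the product of Gypc, anchors the network at its junctions through protein 4.1. Defects of ankyrin-1 and band 3 are known causes of hereditary spherocytosis. The genes are expressed as red cells mature. H3K4me3 marks active promoters, H3K4me1 enhancers and the flanks of promoters, H3K4me2 both, and H3K27ac active promoters and enhancers.

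A single wide consensus H3K27ac region dominated each window. A consensus region is a merged stretch of a group's peaks that holds a peak of every library of the group. At Ank1 it ran from 24137490 to 24174035 (36.5 kb) and ranked 36th by width of 18238 consensus H3K27ac regions. At Gypc it ran from 32692640 to 32722282 (29.6 kb) and ranked 68th, across a break in replicate 2 that is given below. At Slc4a1 it ran from 102219124 to 102240083 (21.0 kb) and ranked 170th. Width was among the values that led to these genes, so the ranks are a description of the choice.

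The libraries agreed on the Ank1 region and cut the Gypc region differently. At Ank1, H3K27ac replicate 1 had 1 peak of 36.065 kb and replicate 2 had 1 peak of 36.052 kb, and their edges differed by 481 bp on the left and 494 bp on the right. At Slc4a1 the peaks were 20.960 kb in replicate 1 and 18.951 kb in replicate 2, with edges 1324 and 685 bp apart. At Gypc, replicate 1 had a peak of 26.5 kb and a short one of 305 bp, while replicate 2 had peaks of 14.825 kb and 14.048 kb with a break between 32707464 and 32708235. The break in replicate 2 fell between the positions of the pair of H3K4me3 regions given below. By width the widest Gypc peak ranked 70 of 28387 in replicate 1 and 264 of 23733 in replicate 2.

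The locus with the widest H3K27ac peak, Ank1, was not the one of highest H3K27ac fold enrichment. Within each window the widest H3K27ac peak of a library did have that library's highest value. Fold enrichment is the authors' own value for each peak over the caller's background, and it was used to rank peaks within a list. The histone lists give no summit, and whether a value is taken over the whole peak is not stated. Values of peaks of unlike width therefore need not rank the signal within them. The Slc4a1 H3K27ac peak had a fold enrichment of 7.46 in replicate 1, rank 129 of 28387 peaks, and of 5.51 in replicate 2, rank 344 of 23733. The wider Ank1 peak had 4.87, rank 2050, and 3.92, rank 2635. The highest Gypc values were 4.58, rank 2708, and 3.99, rank 2411. Slc4a1 was thus the highest of these loci in both libraries, and Ank1 and Gypc changed places between them.

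**Figure D1:**
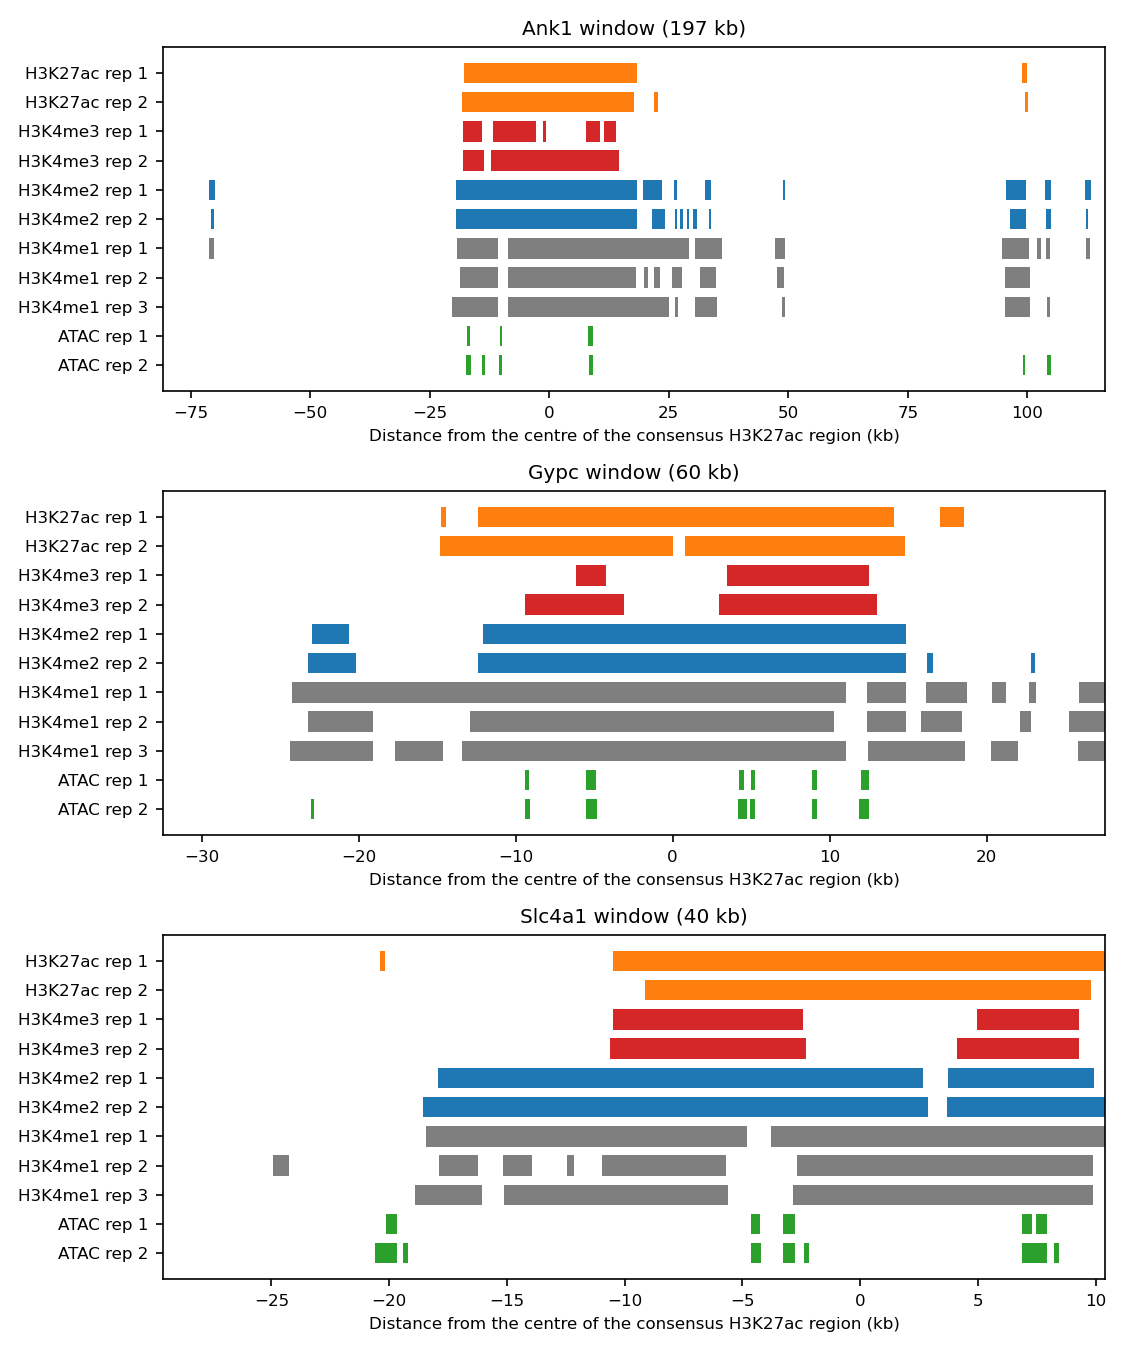
Peaks of the 11 lists (rows) in the Ank1, Gypc and Slc4a1 windows, against distance in kb from the centre of the wide consensus H3K27ac region. Bars are peaks, coloured by mark, and the shortest are drawn at a minimum width so that they can be seen. One wide consensus H3K27ac region stands in each window, with 2 consensus H3K4me3 regions inside it. At Gypc the H3K27ac region is broken in replicate 2.

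Within the acetylated regions H3K4me2 and H3K4me1 lay nearly end to end. At Ank1, H3K4me2 peaks covered 100% of the region in both libraries, as a single peak of 38.0 kb in each. At Slc4a1, H3K4me2 covered 94.2% ± 2.67 (SD, n = 2) and at Gypc 91.3% ± 0.673. H3K4me1 covered 93.9% ± 0.490 (SD, n = 3) of the Ank1 region, 91.0% ± 4.63 of the Gypc region and 87.4% ± 6.78 of the Slc4a1 region. Among the 500 widest H3K27ac regions of the genome the medians, by consensus regions, were 74.4% for H3K4me2 and 94.1% for H3K4me1. By the same measure H3K4me2 covered 100% of the Ank1, 96.0% of the Slc4a1 and 91.8% of the Gypc region, all above that median. H3K4me1 covered 94.3%, 95.2% and 95.6%, close to it.

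The widest H3K4me1 peaks differed in width between libraries, and only that of replicate 1 was wider than the acetylated region at every locus. At Ank1 it was 37.8, 26.6 and 33.5 kb in replicates 1, 2 and 3, within the consensus region from 24147174 to 24184971. At Gypc it was 35.3, 23.2 and 24.5 kb, within the consensus from 32683089 to 32718524. At Slc4a1 it was 23.7, 12.6 and 12.8 kb, within 102225827 to 102249524. Replicate 1 had the widest peak in every window, and its list covers the most sequence of the H3K4me1 lists, 131 Mb against 91.5 and 106 Mb. The H3K4me2 peaks were closer, at 27.0 and 27.2 kb over 32695073 to 32722309 at Gypc and at 20.6 and 21.4 kb over 102211055 to 102232472 at Slc4a1.

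**Figure D2:**
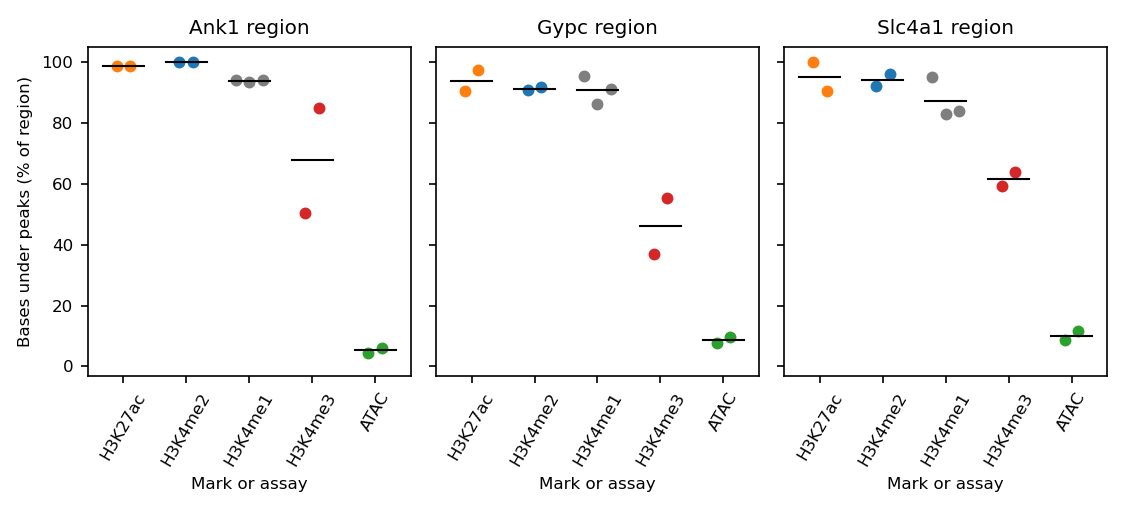
Share of the bases of the wide H3K27ac region of each locus (vertical axis, %) under the peaks of each library (points), by mark or assay, with the mean as a line. H3K4me1 has 3 points and the other groups have 2. H3K4me3 lies between 37.1% and 85.1% and is the mark whose libraries differ most at Ank1 and Gypc.

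H3K4me3 covered much of these regions. The covered length was greatest at Ank1, where the libraries differed. By share of the region Ank1 was highest in replicate 2 only, since in replicate 1 it had 50.5% against 59.2% at Slc4a1. The consensus H3K4me3 region of Ank1 from 24143686 to 24170408 (26.7 kb) was the widest of 13600 in the genome. That width came from replicate 2, where it is 1 peak of 26.7 kb, the widest of 16886. Replicate 1 had 4 peaks over the same stretch, of 8.86 kb, 339 bp, 2.90 kb and 2.36 kb, and the widest ranked 34th of 14027. A second consensus region lay just to the left, from 24137661 to 24142028 (4.37 kb). In all, H3K4me3 covered 18.4 kb of the Ank1 window in replicate 1 and 31.1 kb in replicate 2, all of it inside the acetylated region. The 8.86 kb peak of replicate 1 had a fold enrichment of 9.17, the highest of its list in the window.

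At Slc4a1 the libraries drew nearly the same picture of H3K4me3. The larger region ran from 102218977 to 102227300 (8.32 kb), with peaks of 8.09 kb in replicate 1 (fold enrichment 10.2) and 8.32 kb in replicate 2 (12.1). The smaller ran from 102233717 to 102238913 (5.20 kb), with peaks of 4.35 kb (3.85) and 5.20 kb (4.53). The covered length was 12.4 kb and 13.5 kb. Fold enrichment was therefore higher in the larger region in both libraries, as it was at Gypc.

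At Gypc the larger H3K4me3 region ran from 32710411 to 32720477 (10.1 kb), the 40th widest of 13600. Its peaks were 9.06 kb in replicate 1 (fold enrichment 10.1) and 10.1 kb in replicate 2 (12.0). The smaller, from 32698035 to 32704342, was weak and of unsettled width, with 1.94 kb in replicate 1 (2.90) and 6.31 kb in replicate 2 (3.29). Its −log10 q was 2.03 and 3.78, so it is absent when peaks with −log10 q under 5 are left out, and the covered length then goes from 13.7 kb to 9.56 kb.

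By share of bases, H3K4me3 consensus regions took 85.1% of the Ank1 region, 63.8% of the Slc4a1 region and 55.2% of the Gypc region. The median over the 500 widest H3K27ac regions was 17.6%. Ank1 had the highest share of the 500, Slc4a1 ranked 21st and Gypc 38th. With H3K4me3 replicate 1 alone the shares were 50.5%, 59.2% and 37.1% against a median of 12.0%, and the ranks were 25, 10 and 69. With replicate 2 alone they were 85.1%, 63.8% and 55.2% against 19.9%, with ranks 1, 21 and 40. The first rank of Ank1 thus rests on replicate 2, while over the consensus H3K27ac regions all of these loci stood above the median in each H3K4me3 library. With H3K27ac replicate 2 alone the Gypc rank was 132, because the region was then its 14.8 kb left part. Of that part H3K4me3 replicate 1 covered 13.1%, against a median of 13.2% over the 500 widest peaks of H3K27ac replicate 2.

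The wide H3K4me3 peak of Ank1 was in the library that shares its title tag with H3K27ac replicate 1. Of the H3K27ac peak of replicate 1, H3K4me3 replicate 2 covered 85.3% at Ank1, 61.8% at Gypc and 63.8% at Slc4a1, with ranks 4, 36 and 29 among the 500 widest peaks of that list. Of the H3K27ac peak of replicate 2, which has another tag, it covered 86.2% at Ank1, 42.5% at Gypc and 63.6% at Slc4a1. The ranks were then 7, 138 and 43. At Ank1 H3K4me3 replicate 1 covered 50.6% and 51.1% of these peaks, with ranks 34 and 49. The shares at Ank1 and Slc4a1 thus moved little with the H3K27ac library chosen, while their ranks were farther from the top with replicate 2. Whether the tag has a part in the difference between the H3K4me3 libraries was not tested.

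Each region held 2 H3K4me3 regions, and 35% of the 500 widest held at least as many.

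**Figure D3:**
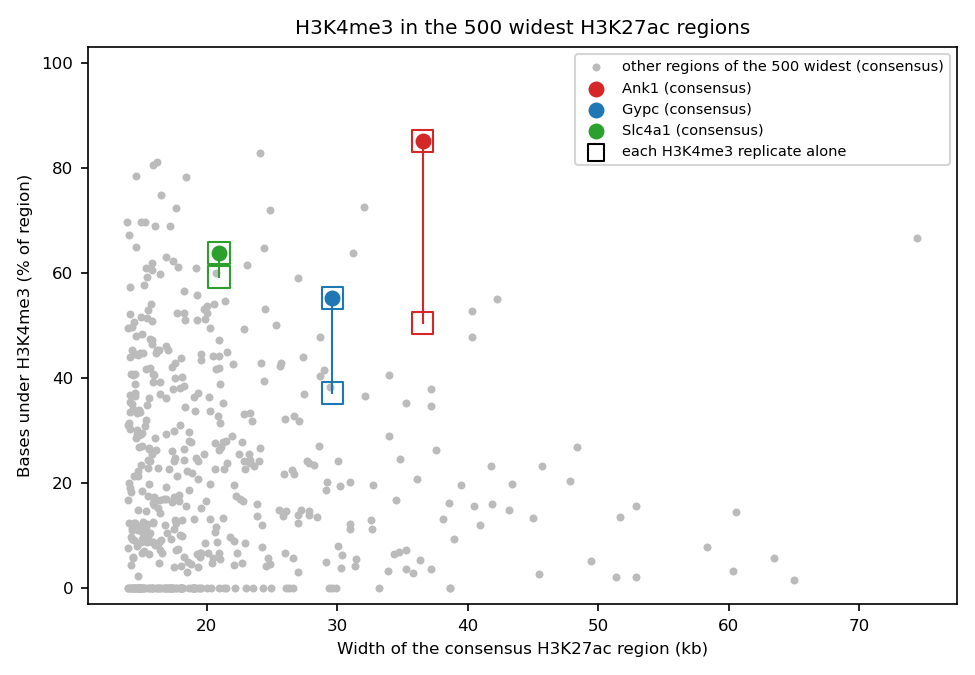
Share of bases under H3K4me3 (vertical axis, %) against width (horizontal axis, kb) for the 500 widest consensus H3K27ac regions. Filled circles are consensus H3K4me3 regions and open squares are each H3K4me3 replicate alone, of which replicate 2 coincides with the circle in every locus. Ank1 is the highest circle, at 85.1%, and falls to 50.5% by replicate 1, below the 59.2% of Slc4a1.

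Open chromatin in proerythroblasts was found at 13 consensus sites in these windows, 3 at Ank1, 6 at Gypc and 4 at Slc4a1. All but 1 lay in the wide acetylated region and overlapped both H3K4me3 and H3K27ac. That is 12 of 13, where 62.1% of the 16271 consensus open sites of the genome did so. Open sites and H3K27ac led to the choice of these loci, so the count is not evidence of a difference. With −log10 q of at least 5, 4 of the 6 Gypc sites kept both marks, since the smaller H3K4me3 region is then absent. Only 4 other regions among the 500 widest held as many open sites as the 6 of Gypc or more, and the median was 2. That count takes no account of width. By share of bases under consensus open sites Gypc had 9.65%, and 423 of the 500 had less. Slc4a1 had 9.70% (424 with less) and Ank1 6.21% (262), against a median of 5.99%.

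The Ank1 open sites were 24138428 to 24139319, 24145390 to 24145868 and 24163994 to 24164892. The ATAC summits of the 2 libraries were 9, 1 and 11 bp apart. The rightmost site had the highest fold enrichment, 9.91 in replicate 1 and 8.49 in replicate 2, above 84.2% and 74.8% of the peaks of each list. The middle site had 6.60 and 6.65, and the left site 5.94 and 5.82. The order was the same in both libraries.

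The Slc4a1 sites inside the acetylated region were 102224950 to 102225395, 102226330 to 102226854 and 102236480 to 102237541. The rightmost again had the highest fold enrichment, 7.93 in replicate 1 and 6.99 in replicate 2. It lay in the smaller H3K4me3 region. The other pair lay in the larger H3K4me3 region, with 6.28 and 5.29 for the left and 5.00 and 5.66 for the right. Their order therefore differed between the libraries.

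At Gypc the site of highest fold enrichment was 32701952 to 32702626, with 8.73 and 8.88, in the weak H3K4me3 region. A site at 32698045 to 32698353, with 3.99 and 4.24, lay at the left end of the H3K4me3 peak of replicate 2 and outside that of replicate 1. The larger H3K4me3 region held the other sites. They were 32711619 to 32712186 (4.93 and 6.51), 32712415 to 32712738 (5.08 and 4.99), 32716315 to 32716647 (4.19 and 3.91) and 32719316 to 32719968 (5.87 and 6.05). At Gypc and Slc4a1, then, the most enriched open site in both ATAC libraries lay outside the H3K4me3 region of higher fold enrichment. At Ank1 it lay in a peak of 2.96 in H3K4me3 replicate 1, away from the peak of 9.17, and inside the single long peak in replicate 2.

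In each locus 1 open site lay in a break between H3K4me1 peaks in all 3 H3K4me1 libraries. A break was taken as summits outside every H3K4me1 peak with a peak within 3 kb on both sides, a rule set after the values were seen. At Ank1 it was the middle site, and the uncovered stretch around it was 2088, 2241 and 2177 bp long in replicates 1, 2 and 3. At Gypc it was the site at 32719316 to 32719968, with stretches of 1319, 2135 and 1393 bp. At Slc4a1 it was the site at 102224950 to 102225395, with stretches of 1008, 2975 and 2749 bp. In H3K4me1 replicates 2 and 3 the Slc4a1 stretch also held the summits of the next site, at 102226330 to 102226854, which a replicate 1 peak covered. H3K4me2, H3K4me3 and H3K27ac peaks covered the summits of these sites in every library.

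Such sites made up 12.8% of all consensus open sites and 20.5% of those with H3K4me3 and H3K27ac, and the 3 of 13 here are near those shares. Of the 500 widest H3K27ac regions, 21.6% held at least 1, as did the region of each of these genes. The rule was set with these loci seen, so this is not evidence of a difference. With −log10 q of at least 5 the Slc4a1 count was 0. The most enriched open site of each locus was of the other kind, with H3K4me1 over its summits in all 3 libraries.

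**Figure D4:**
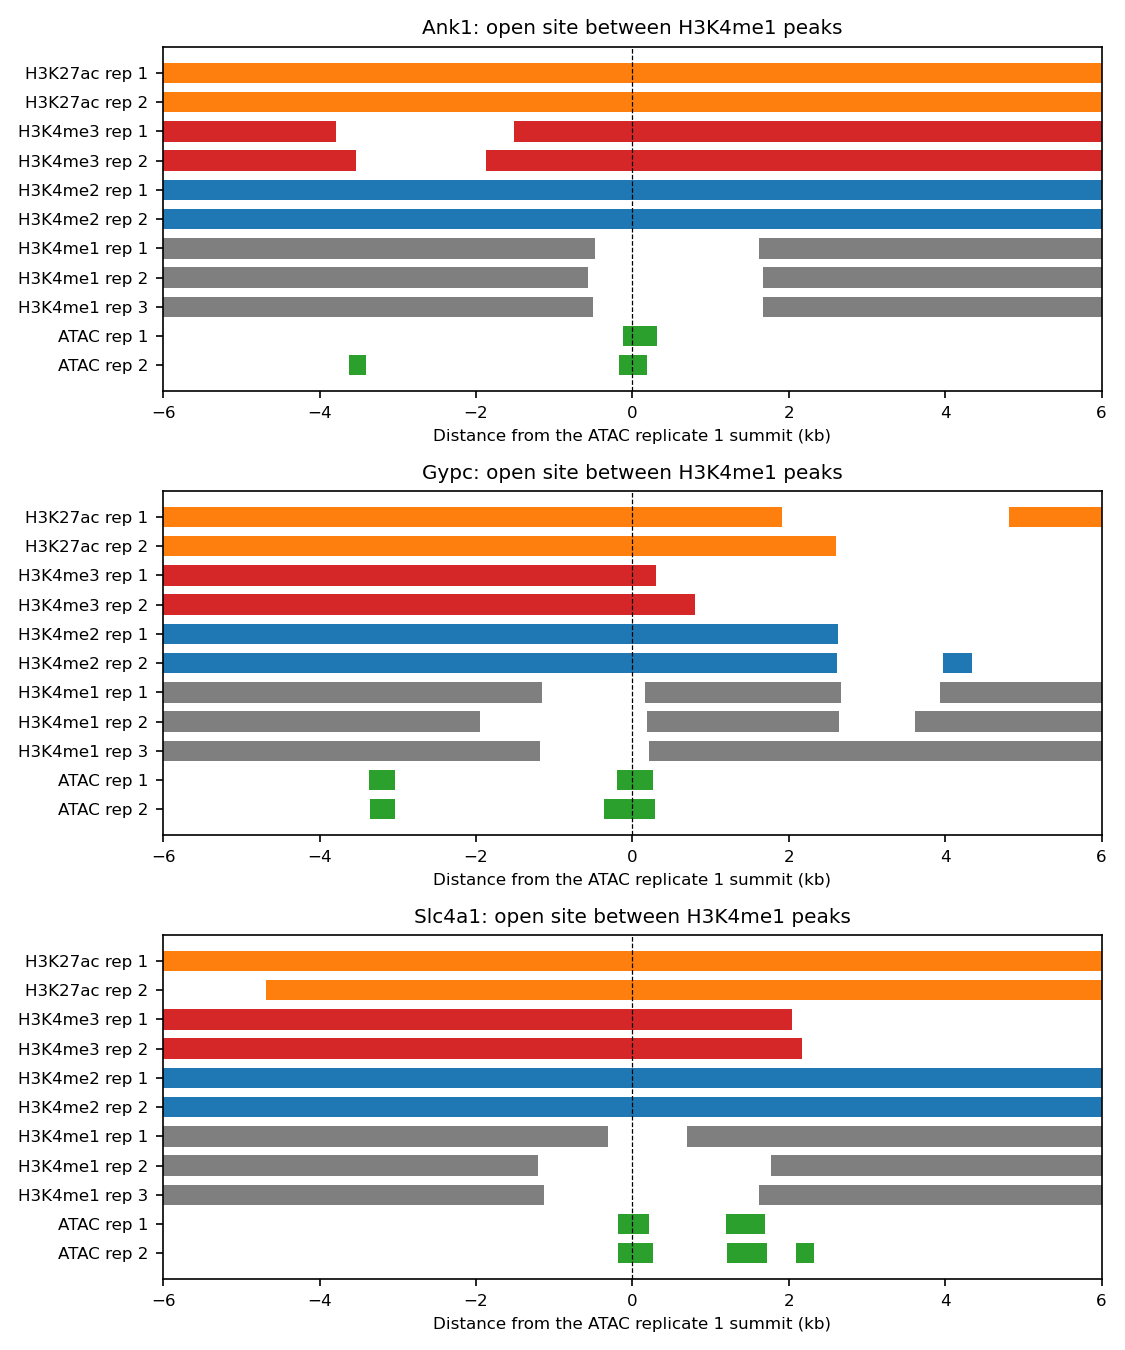
Peaks of the 11 lists (rows) within 6 kb of the open site that lies between H3K4me1 peaks at Ank1, Gypc and Slc4a1, against distance in kb from the ATAC summit of replicate 1 (dashed line). Bars are peaks, coloured by mark. H3K4me1 is broken at the summit in all 3 libraries, while H3K27ac, H3K4me2 and H3K4me3 run across it.

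The H3K4me3 region over each of these sites reached mostly to one side of it. The other H3K4me3 region of each locus was not counted in this split. It lay to the left at Ank1 (4.37 kb) and to the right at Slc4a1 (5.20 kb), the shorter side in both. At Gypc it lay to the left (6.31 kb), the longer side. At Ank1 the consensus region over the site extended 1.94 kb to the left of the site and 24.8 kb to the right. In replicate 1 alone the peak there extended 1514 bp to the left of the summit and 7341 bp to the right. At Gypc it extended 9.23 kb to the left and 0.836 kb to the right, and at Slc4a1 6.20 kb and 2.13 kb. The longer side held 92.7%, 91.7% and 74.4% of the region. Of 457 such sites in H3K4me3 regions of at least 5 kb, 44.4% had at least 75% of the region on one side, as did 2 of the 3 here. Left and right are as mm9 runs, and the direction of transcription was not placed on these files.

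At Ank1 and Gypc 1 H3K4me1 peak beside the break, on the shorter side of the H3K4me3 region over the site, was examined. It had the window's highest fold enrichment in every library. At Slc4a1 it did so in replicates 1 and 3. These comparisons were made after the values were seen and were not set beside other regions of the genome. The windows held few H3K4me1 peaks, at Slc4a1 2, 6 and 3 in replicates 1, 2 and 3. At Gypc this peak, which starts at 32719844, 32719864 and 32719893 in replicates 1, 2 and 3, had fold enrichments of 5.98, 4.07 and 4.09. It ranked 81 of 52387, 617 of 42323 and 1001 of 44542. At Ank1 the peak to the left of the break had 3.83, 2.85 and 3.10, only slightly above the wide peak to the right at 3.82, 2.78 and 3.00. At Slc4a1 the peak to the right had 3.82 in replicate 1 and 3.06 in replicate 3, while in replicate 2 it had 2.54 and a short peak at 102214421 to 102215652 had 2.66.

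ATAC replicate 2 saw more open sites than replicate 1. All 15 peaks of replicate 1 in the windows overlapped a peak of replicate 2, against 92.3% of that list as a whole. Of the 20 peaks of replicate 2, 13 overlapped replicate 1, against 57.6% of its list. The other 7 were 3 at Ank1, 1 at Gypc and 3 at Slc4a1, with fold enrichments from 2.54 to 5.52. Inside the acetylated regions they were 24141931 to 24142159 at Ank1, and 102227225 to 102227450 and 102237816 to 102238062 at Slc4a1. Outside them lay 102210179 to 102210406 at Slc4a1 and the peaks of Ank1 and Gypc given with the flanks. Replicate 2 also has the longer list, with 28980 peaks against 18441.

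Outside the acetylated regions the windows carried H3K4me1 and H3K4me2 and almost no H3K4me3. Beyond the region H3K4me3 covered 0 kb at Ank1 and Gypc and at most 0.147 kb at Slc4a1, at its left end. H3K4me1 covered 21.3 kb ± 7.17 (SD, n = 3) outside the region at Ank1, 13.4 kb ± 3.10 at Gypc and 6.57 kb ± 1.93 at Slc4a1. These lengths do not rank the loci, because the flanks differ in length. The acetylated region was 18.6% as wide as the window at Ank1, 49.4% at Gypc and 52.4% at Slc4a1. At Slc4a1 it reached the right edge of the window.

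At Ank1 a separate cluster of marks lay near the right end of the window. It had consensus H3K4me1 from 24250552 to 24256348, H3K4me2 from 24251385 to 24255529 and H3K27ac from 24254748 to 24255934. The H3K27ac peaks there were short and weak, 969 bp with a fold enrichment of 2.28 in replicate 1 and 654 bp with 2.33 in replicate 2. ATAC replicate 2 had a peak at 24254855 to 24255285 (fold enrichment 5.52) and replicate 1 had none. Farther right, H3K4me2 covered 24259561 to 24260744, with a peak of ATAC replicate 2 at 24259919 to 24260669 (4.96), and 24267898 to 24269176. At the left end of the window H3K4me2 covered 24084672 to 24085806 with no open site in either library.

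To the left of the Gypc region, consensus H3K4me2 lay only at 32684260 to 32687275, where H3K4me1 was found in all 3 libraries. There ATAC replicate 2 had a weak peak at 32684399 to 32684626 (3.87). At Slc4a1 the open site at 102208983 to 102209930 met no consensus mark, as did 3.81% of open sites in the genome. Its fold enrichment was 4.28 in replicate 1 and 3.50 in replicate 2, its summits were 148 bp apart, and no H3K4me1, H3K4me2 or H3K4me3 peak of any library covered them. A short H3K27ac peak of replicate 1, from 102209203 to 102209443 with −log10 q of 1.42, overlapped the site but not its summits. H3K4me1 and H3K4me2 regions began to its right, at 102210701 and 102211055.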

How the data were processed

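The authors deposited 1 MACS2 peak list per library, so replicates were not pooled. Trimmomatic 0.32, Bowtie 1.0.1, SAMtools, MACS2 and the mm9 build are named in the submitters' processing notes. Settings and the peak-calling control are not stated, and the ATAC-seq samples carry the ChIP protocol. Each deposited peak has a ratio to local background (fold enrichment), a −log10 p, a −log10 q and a score, and the authors' ATAC lists add a summit. The lists hold no read counts, so depth is unknown and levels were not compared between marks or lists.

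All nuclear chromosomes entered, without 7 mitochondrial peaks. Peaks were cut at the window edge for covered lengths, consensus regions were kept whole, and overlap meant at least 1 bp. Positions count from 1. No mm9 gene annotation was used, so no transcription start was placed, other membrane genes were not looked up and markers of cell identity were not checked. The RefSeq promoter table (GRCm38) matched 0 of the 3 genes.

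The members, windows and comparisons were chosen with earlier results of these data known. Named regions are every consensus H3K4me3, H3K27ac and ATAC region of a window, the widest H3K4me1 and H3K4me2 regions and single-list ATAC peaks, and the other H3K4me1 and H3K4me2 regions named were picked after their values were seen. The interval code was tested on simulated data. Alternatives were thresholds of −log10 q of at least 5 and 10, unclipped peaks, bases covered in every list, 50% reciprocal overlap, equal ATAC list lengths, summits within marks, stitching at 12.5 kb, libraries matched by title tag and each replicate left out. Analyses used Python 3.11.15, numpy 2.4.6 and matplotlib 3.10.9.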

Additional observations from a re-analysis of the deposited data

How the results depend on the processing

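Of the results that answer a comparison, 93 recomputed values stayed within 1 SD between libraries (counts and ranks within 1.5 times) and 33 did not. The cause was not tested unless the setting itself gives it. Some of the 93 were fixed in advance and are no sign of stability. A mean covered length of 2 libraries always stays within 1 SD when either is left out. Unclipped lengths can change only where a peak crosses the window edge. With −log10 q of at least 5, and likewise at 10, H3K27ac covered 36.1 kb at Ank1 and 27.7 kb at Gypc and H3K4me3 covered 9.56 kb at Gypc. H3K4me3 at Slc4a1 was 10.8 kb at 10. At 5 the H3K4me3 share ranked 2 at Ank1 and 124 at Gypc, and no Slc4a1 site (0) lay between H3K4me1 peaks, since fewer H3K4me1 peaks remain. H3K4me1 covered 45, 31.5 and 17.7 kb at 5 and 18.7, 23.7 and 8.97 kb at 10 in the Ank1, Gypc and Slc4a1 windows, against 55.6, 40.4 and 24.9 kb in the full lists. Over bases covered in every list, the share ranked 24 at Ank1, 67 at Gypc and 9 at Slc4a1. With 50% reciprocal overlap 2 Slc4a1 open sites were left. Stitching gave H3K27ac regions of 41.0 kb at Ank1, 64.8 kb at Gypc and 36.9 kb at Slc4a1, whose ranks by width were 844, 414 and 987.

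Leaving out 1 library at a time gave ranges. Open sites numbered 4 to 6 at Ank1 and 5 to 7 at Slc4a1, those at Slc4a1 with H3K4me3 and H3K27ac 3 to 5, and those between H3K4me1 peaks 1 to 2, the 2 being without H3K4me1 replicate 1. The upper counts of open sites are those without ATAC replicate 1. With 1 ATAC library left out, every peak of the other counts as a site. These open site counts therefore cannot fall below the 3 consensus sites of Ank1 and the 4 of Slc4a1, and are no measure of stability. The widest H3K27ac region was 36.052 to 36.065 kb at Ank1, 14.8 to 26.5 kb at Gypc and 18.951 to 20.960 kb at Slc4a1. The H3K4me3 share ranked 1 to 25 at Ank1, 35 to 132 at Gypc and 10 to 44 at Slc4a1. No paired analysis was possible because the results come from no test, and the title tags cross the replicate numbers. With the H3K27ac and H3K4me3 libraries that share a tag, an alternative chosen after seeing the data, the share ranked 4 at Ank1, 36 at Gypc and 29 at Slc4a1.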
